A study of Mus musculus with 29 samples.

Results

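The genes of antigen presentation by major histocompatibility complex (MHC) class II described here are 7 members: H2-Aa, H2-Ab1, H2-Eb1, H2-DMa, H2-DMb1, Cd74 and Ciita. They were taken by name out of 27827 genes listed in the count tables, and each was followed through every library and every annotated cell type. Transcripts of single cells were counted by Drop-seq, which pairs each cell with a barcoded bead in a droplet, in 29 libraries from C57BL/6J mice. Stroke was modelled by closing the middle cerebral artery for a limited time, with sham surgery as control.

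The 18 brain libraries each held 4 to 5 pooled hemispheres, digested with papain while inhibitors of transcription were present, and sorted into microglia, leukocytes high in CD45 and endothelial cells. The 11 blood libraries each held white blood cells pooled from 2 mice. Young animals were males aged 8 to 10 weeks. Their brains gave 4 libraries after sham surgery at day 2, 4 after stroke at day 2 and 4 after stroke at day 14, and their blood gave 4, 4 and 3. Aged animals (17 to 20 months) gave brain libraries only: 2 after sham at day 2 (1 male and 1 female), 3 after stroke at day 2 (1 male and 2 female) and 1 female library after stroke at day 14. No group had sham surgery at day 14, so the day 2 sham libraries are the controls of both stroke times. Stroke and the time since surgery therefore cannot be told apart in a comparison of day 14 with sham.

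MHC class II molecules carry peptides from ingested protein to the cell surface, where CD4+ T cells read them. H2-Aa and H2-Ab1 encode the chains of the I-A molecule and H2-Eb1 the beta chain of I-E, whose alpha chain is not made in C57BL/6 mice. Cd74 encodes the invariant chain, which occupies the peptide groove until it is cut away. H2-DMa and H2-DMb1 encode H2-DM, which exchanges the last invariant chain fragment for a peptide. Ciita encodes the class II transactivator, the master switch of these genes, which acts through a protein complex on short promoter elements called the X box and the Y box. Dendritic cells and B cells carry class II at all times, whereas microglia of the healthy brain carry little.

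In GENCODE M21 on build GRCm38, H2-DMa spans chr17:34119541-34139101 and H2-DMb1 chr17:34153072-34160230, both on the plus strand. H2-Ab1 spans chr17:34257689-34269419 and H2-Eb1 chr17:34305867-34316674, also on the plus strand, with H2-Aa between them on the minus strand at chr17:34282744-34287823. Ciita spans chr16:10480059-10528418 on the plus strand.

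Promoters of H2-Aa, H2-Eb1, H2-DMb1 and H2-DMa were searched, and those of H2-Ab1, Cd74 and Ciita were not analysed here. The stretches below are the 100 bases before the start site of the 3 searched members whose RefSeq promoter (GRCm38.p6) holds an X box followed by a Y box, and they are shown because the members of this set share Ciita as their regulator. Capitals mark the X box, searched as CTNGNAACT, and after it the Y box, searched as TGATTGG. The stretches are chr17:34153091-34153190 (plus strand) for H2-DMb1, chr17:34287824-34287923 (minus strand) for H2-Aa and chr17:34305767-34305866 (plus strand) for H2-Eb1.
H2-DMb1: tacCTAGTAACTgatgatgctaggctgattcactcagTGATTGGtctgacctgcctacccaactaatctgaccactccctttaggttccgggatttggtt
H2-Aa: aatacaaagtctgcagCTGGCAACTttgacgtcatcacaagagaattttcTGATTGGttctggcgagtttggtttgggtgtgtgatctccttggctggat
H2-Eb1: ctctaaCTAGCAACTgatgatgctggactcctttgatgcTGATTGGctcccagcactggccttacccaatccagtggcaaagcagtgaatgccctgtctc

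The X box began 97, 84 and 94 bases before the start site in H2-DMb1, H2-Aa and H2-Eb1, and the Y box began 34, 34 and 33 bases after it. Both strands of 32851 promoter entries of 300 bases (250 before and 50 after the start site) were searched. The X box letters were found in 4.1% of them and the Y box letters in 7.82%. An X box with a Y box within 50 bases on the same strand was found in 6 entries (0.0183%), which were those of H2-Aa, H2-Eb1, H2-DMb1, Creg1, 1700048F04Rik and BC051142. Neither of the 2 entries of H2-DMa held either set of letters, and those of H2-Oa, H2-Ob, H2-DMb2 and H2-Eb2 each held 1 Y box match and no X box match. The letters were chosen with these promoters in view, and a match describes the sequence only.

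Libraries held 1143 to 6328 cells and 819438 to 5855050 summed counts, and the median cell had 321 to 1363 counts, so a gene of few transcripts is seen in few cells. The authors' cell type codes were used as deposited. Marker genes of microglia (Mg), endothelial cells (EC), granulocytes (Gran), B cells (Bc), T cells (Tc), NK cells (NK), border-associated macrophages (BAM), monocyte-derived cells of the brain (MdC), blood monocytes (Mo) and blood neutrophils (Neu) were highest in the type so named. For the dendritic code (DC) the monocyte or macrophage list was highest in both tissues, and the dendritic name is the authors'. The counts are not whole numbers, and values under 0.01 made up 39.1% of the class II values above 0 in microglia, 74.0% in endothelial cells and 96.3% in blood neutrophils, but 0.588% in MdC and 0.522% in DC. In 2 sums the type's own markers were far lower than in the other libraries, library 3 of stroke at day 2 for microglia and library 4 of sham for BAM. The first held 58 cells with a summed microglial marker level of 816 CPM (the gene's share of all counts in the sum, scaled to a fixed total), against 9816 to 21335 CPM in the other 11 young libraries. The second held 52 cells with a border macrophage marker level of 2174 CPM, against 4798 to 14928 CPM in the others.

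Across the young brain, mean Cd74 levels were highest in DC, B cells and BAM, lower in MdC and lower again in the other 7 types. Cd74 reached 24039.7 ± 3178 CPM in DC (SD, n = 12 libraries), 16715 ± 4479 CPM in B cells (n = 9), 11763 ± 7299 CPM in BAM (n = 12) and 3284 ± 1770 CPM in MdC (n = 12). It was 135 ± 210 CPM in T cells (n = 11), 121 ± 158 CPM in microglia (n = 12), 87.6 ± 92.4 CPM in granulocytes (n = 12) and 60.0 ± 121 CPM in NK cells (n = 6). In endothelial cells Cd74 was at 0 in 10 of 12 libraries, under the code MC it was 0, 0 and 13.6 CPM (n = 3), and in the single sum under the code Epi it was 0. Neighbours in this order overlapped between libraries down to MdC. The lowest MdC library, at 1131 CPM, lay above the highest microglial library, at 476 CPM. The annotation was made from the same cells, so levels of different types are described without a test.

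**Figure D1:**
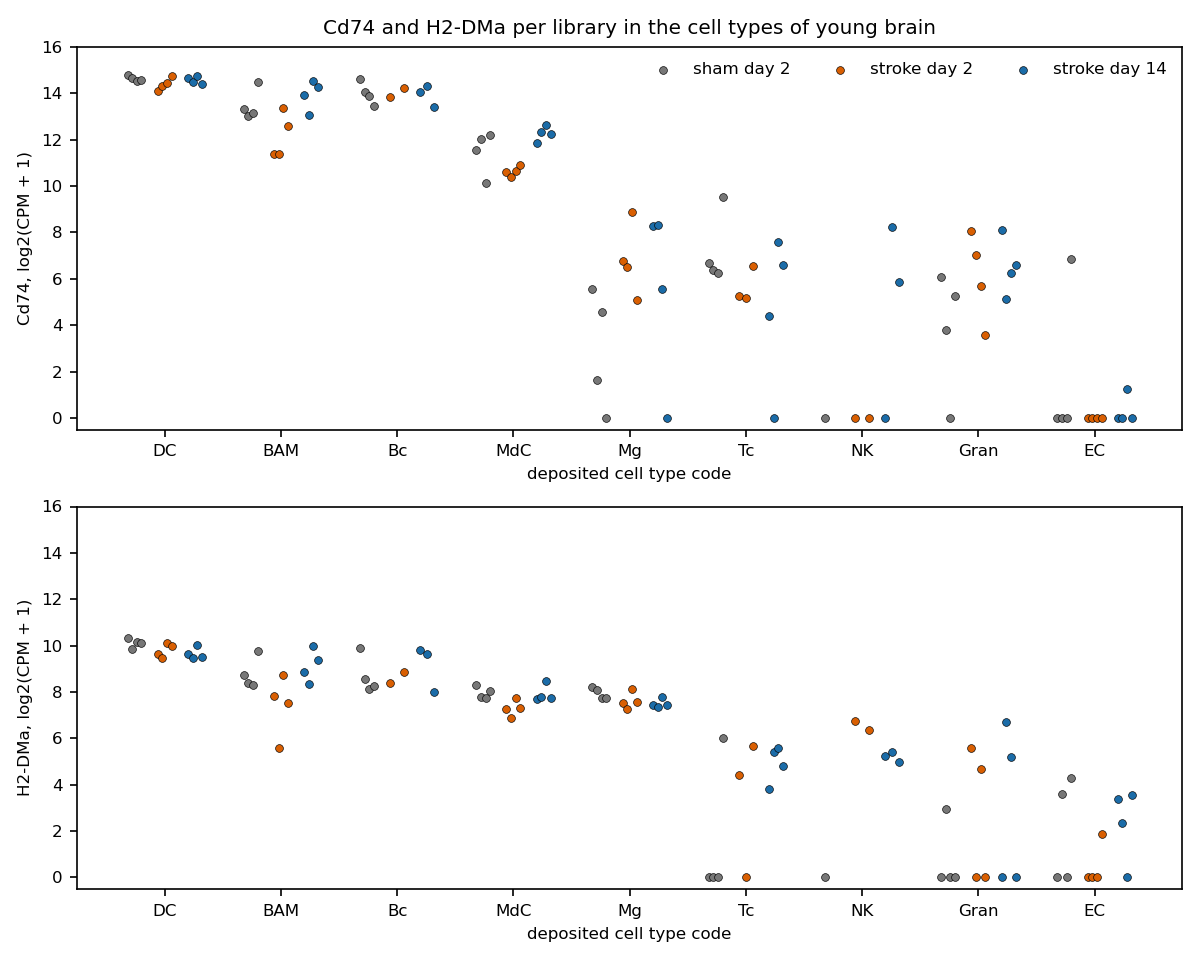
Levels of Cd74 (top) and H2-DMa (bottom) in young brain as log2(CPM + 1), 1 point per library, by cell type and coloured by group. Cd74 is highest in dendritic cells and 0 in 10 of 12 endothelial sums, whereas H2-DMa in microglia (155 to 299 CPM) lies within the span of monocyte-derived cells (116 to 360 CPM).

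H2-DM levels of MdC and microglia were close, unlike the chain genes. H2-DMa was 947 ± 194 CPM in DC, 518 ± 283 CPM in B cells, 442 ± 283 CPM in BAM, 220.3 ± 67.5 CPM in MdC and 211 ± 48.5 CPM in microglia. H2-Aa, by contrast, was 11073 ± 2587 CPM in DC, 4237 ± 1524 CPM in B cells, 4404 ± 2558 CPM in BAM, 1127 ± 638 CPM in MdC and 26.6 ± 44.7 CPM in microglia. H2-DMa in MdC and microglia thus overlapped over nearly its whole range. For H2-Aa, 11 of 12 MdC libraries lay above the highest microglial library (154 CPM), the exception being a sham library at 123 CPM. H2-DMb1 was also close in MdC (124 ± 63.8 CPM) and microglia (95.7 ± 31.6 CPM). In endothelial cells H2-DMa was 4.74 ± 6.30 CPM, with 6 of 12 libraries at 0. Ciita, a gene of few transcripts, was 151 ± 66.4 CPM in DC, 146 ± 89.3 CPM in B cells, 27.0 ± 30.7 CPM in BAM and 10.1 ± 13.5 CPM in MdC, and 8 of 12 microglial libraries had none.

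The mean of H2-DMb1 in B cells lay below that in DC. In the brain they had 123 ± 141 CPM, with 3 of 9 libraries at 0, against 887 ± 354 CPM in DC. The brain B cell subtype Bc1 had 775 CPM of H2-DMb2, the other H2-DM beta gene, and 328 CPM of H2-Oa and 412 CPM of H2-Ob, which encode H2-DO, an inhibitor of H2-DM in B cells. H2-DMb1 and H2-DMb2 are close copies, and how reads shared by both were counted is not given in the sources used here, so the split between them is uncertain. In blood, Cd74 was 17275 ± 2633 CPM in B cells (n = 11), 13947 ± 3316 CPM in DC (n = 6) and 1211 ± 813 CPM in monocytes (n = 11), and it was at 0 in all 11 neutrophil libraries.

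The 3 chain genes and Cd74 moved together over cell types, H2-DM less so. Over 102 sums of a library and a type in young brain (12 libraries, 11 types), the log2(CPM + 1) of each of H2-Aa, H2-Ab1, H2-Eb1 and Cd74 followed the mean of the other 3 with r = 0.955, 0.925, 0.937 and 0.927. The same r was 0.768 for H2-DMa, 0.701 for H2-DMb1 and 0.729 for Ciita. In blood, r ranged from 0.925 (H2-Ab1) to 0.974 (Cd74) for the chain genes and Cd74. There it was 0.755 for H2-DMa, 0.885 for H2-DMb1 and 0.895 for Ciita, so the last 2 were closer to the chain genes than in brain. Sums of 1 library share its depth and its free RNA, and these values carry no test. The 5 other genes most like that mean, among 6242 genes, were Ms4a4c (r = 0.818), Rnase6 (0.815), Cybb (0.768), Ifi30 (0.768) and H2-DMb2 (0.726). In blood (72 sums, 5937 genes) they were Bcl11a (0.913), Cd180 (0.894), Ly86 (0.891), Rnase6 (0.869) and Kmo (0.844).

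Among MdC, border-associated macrophages and blood monocytes, 1 annotated subtype of each had the highest mean levels of H2-Aa and Cd74. The subtype MdC5 had 5673 ± 1449 CPM of H2-Aa and 13582 ± 4237 CPM of Cd74 (n = 10 libraries, young and aged), whereas the means of the other 5 MdC subtypes were 136 to 495 CPM for H2-Aa and 565 to 1843 CPM for Cd74. MdC5 had monocyte genes, with 1720 CPM of Ccr2 and 1562 CPM of Ly6c2, and had 45.6 CPM of Itgax and 11.9 CPM of Flt3, a defining gene of dendritic cells. In the stroke libraries of day 2 it held a median of 64.1% of the MdC counts of Cd74 (58.3% to 68.0%) but 9.33% of all MdC counts. At day 14 it held 74.7% (72.0% to 76.7%) and 22.0%. In sham it held 68.1% to 81.4% in 3 libraries and 15.3% in library 3, where it held 0% of the H2-Aa counts.

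Among border-associated macrophages the subtype BAM2 had 11304 ± 2462 CPM of H2-Aa and 28754 ± 7138 CPM of Cd74 (n = 11), against 317 ± 306 CPM and 1054 ± 606 CPM in BAM1 (n = 8). BAM2 differed from its name: its highest marker list was that of monocytes or macrophages, with 1498 CPM of Ccr2 and 1002 CPM of Mrc1, the macrophage mannose receptor, where BAM1 had 5.77 CPM and 5227 CPM. BAM2 held a median of 93.9%, 88.7% and 91.4% of the BAM counts of Cd74 in sham, day 2 and day 14 libraries. In blood the monocyte subtype Mo5 had 2581 ± 1339.6 CPM of H2-Aa and 9813 ± 4530.1 CPM of Cd74 (n = 9), while the means of Mo1 to Mo4 were 28.98 to 137 CPM and 158 to 944 CPM. Microglia had no such subtype, and the means of Mg1 to Mg8 were 44.8 to 181 CPM for Cd74 and 149 to 270 CPM for H2-DMa.

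Among dendritic subtypes, DC5 had the lowest mean H2-DM levels of DC1 to DC7. DC5 was marked by Ccr7 (3241 CPM) and Fscn1 (1721 CPM), genes of migrating mature dendritic cells. The H2-Aa level of DC5, 10763 ± 7081 CPM (n = 6), lay among the means of DC1 to DC4, DC6 and DC7, 9351 to 14226 CPM. That place rests on 1 library of 29 cells at 24697 CPM. The other 5 ranged from 6232 to 11015 CPM, and their mean of 7976 ± 2103 CPM lay below each of those means. This library was left out for being the highest, which by itself lowers the mean. No library was left out of the other subtypes. DC5 therefore cannot be placed with certainty for H2-Aa. Its H2-DMa was 298, 0, 148 and 227 CPM in the 4 day 14 libraries and 305 and 318 CPM in 2 day 2 libraries, where the means of those other subtypes were 787 to 1106 CPM. Its H2-DMb1 was 111 ± 49.4 CPM, against means of 576 to 1059 CPM. All 6 DC5 sums came from young mice after stroke. Both H2-DM means lay below those of the other 6 subtypes, with single DC4 libraries as low as 221 CPM for H2-DMa and 140 CPM for H2-DMb1. DC8, with 3465 CPM of Siglech and 990.1 CPM of Ccr9, genes of plasmacytoid dendritic cells, had 2073 ± 387 CPM of H2-Aa and 570.3 ± 211 CPM of H2-DMa (n = 2).

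**Figure D2:**
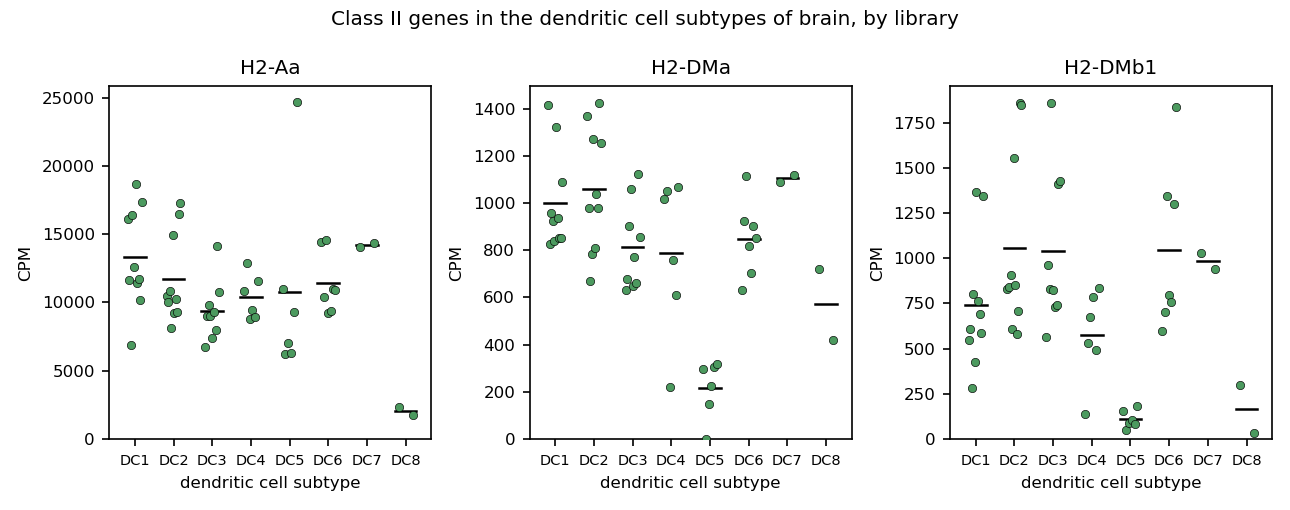
H2-Aa, H2-DMa and H2-DMb1 (CPM, 1 panel each) in the dendritic subtypes DC1 to DC8, 1 point per brain library with at least 20 cells of the subtype, bars at the mean. DC5 has an H2-Aa mean of 10763 CPM, raised by 1 library at 24697 CPM, and lies below DC1 to DC4, DC6 and DC7 in its means of H2-DMa (216 CPM) and H2-DMb1 (111 CPM).

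In monocyte-derived cells of the young brain, Cd74 and Ciita rose between day 2 and day 14 of stroke. The values of the chain genes did not overlap. Calls depended on the tool, the groups fitted, the filter on low counts and whether same-numbered libraries were paired. Cd74 was 1571, 1329, 1598 and 1897 CPM in the 4 libraries of day 2 and 3662, 5133, 6337 and 4908 CPM in the 4 of day 14. Each day 14 library lay above each day 2 library. Ciita was 5.02, 5.02, 5.11 and 3.17 CPM at day 2 and 15.2, 31.6, 15.5 and 40.8 CPM at day 14, again without overlap. With edgeR's quasi-likelihood test, adjusted by the Benjamini-Hochberg method over 8080 genes, 2 of 7 members passed an adjusted p of 0.05 between these groups, where 1.79% of all genes did. Cd74 rose by a log2 fold change of 1.60 ± 0.38 (SE, adjusted p = 0.0425) and Ciita by 2.38 ± 0.46 (adjusted p = 0.0209). Ciita passed the filter on low counts through its day 14 values, so its call rests on the group in which it was high.

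The differences of the chain genes were of similar size. H2-Aa was 537, 399, 787 and 640 CPM at day 2 and 1467, 1585, 2347 and 1558 CPM at day 14. H2-Ab1 ranged from 667 to 1078 CPM at day 2 and from 2071 to 3061 CPM at day 14, and H2-Eb1 from 307 to 492 CPM and from 1068 to 1551 CPM. None of these 3 genes overlapped between the groups. The share of all genes without overlap is not given here, for this or any other comparison. For H2-Aa the log2 fold change was 1.51 ± 0.48 (adjusted p = 0.16), that of H2-Ab1 1.62 ± 0.53 (adjusted p = 0.174) and that of H2-Eb1 1.58 ± 0.46 (adjusted p = 0.111). H2-DMa (0.61 ± 0.27, adjusted p = 0.376) and H2-DMb1 (0.85 ± 0.37, adjusted p = 0.37) overlapped. The replicate number was also used as a block, which the libraries of these groups allow as a pairing by their correlated deviations. That fit held the sham libraries under their numbers too. Their same-numbered pairs did not deviate together (r from -0.0907 to 0.133 with day 14 and from -0.0770 to 0.0444 with day 2). With this block, edgeR called 5 of 7 members, where 5.82% of genes were called. These were H2-Aa (1.52 ± 0.43, adjusted p = 0.0315), H2-Ab1 (1.60 ± 0.45, adjusted p = 0.0289), H2-Eb1 (1.59 ± 0.41, adjusted p = 0.0153), Cd74 (adjusted p = 0.00696) and Ciita (adjusted p = 0.000861), while H2-DMa (adjusted p = 0.188) and H2-DMb1 (adjusted p = 0.0608) were not called. Without the block, all 7 members had a positive value and an unadjusted p under 0.05, where 948 of 8080 genes had such a p in either direction. The median log2 fold change of the members was 1.58 where that of all genes was 0.04. Without the block, no member was called with any 1 of the 8 libraries left out. The log2 fold change of Cd74 was then between 1.44 and 1.74 (adjusted p from 0.0596 to 0.167). Ciita was tested only without day 14 library 2 (2.23, adjusted p = 0.0885) or 4 (2.02, adjusted p = 0.114), and did not pass the filter on low counts in the other 6 fits.

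**Figure D3:**
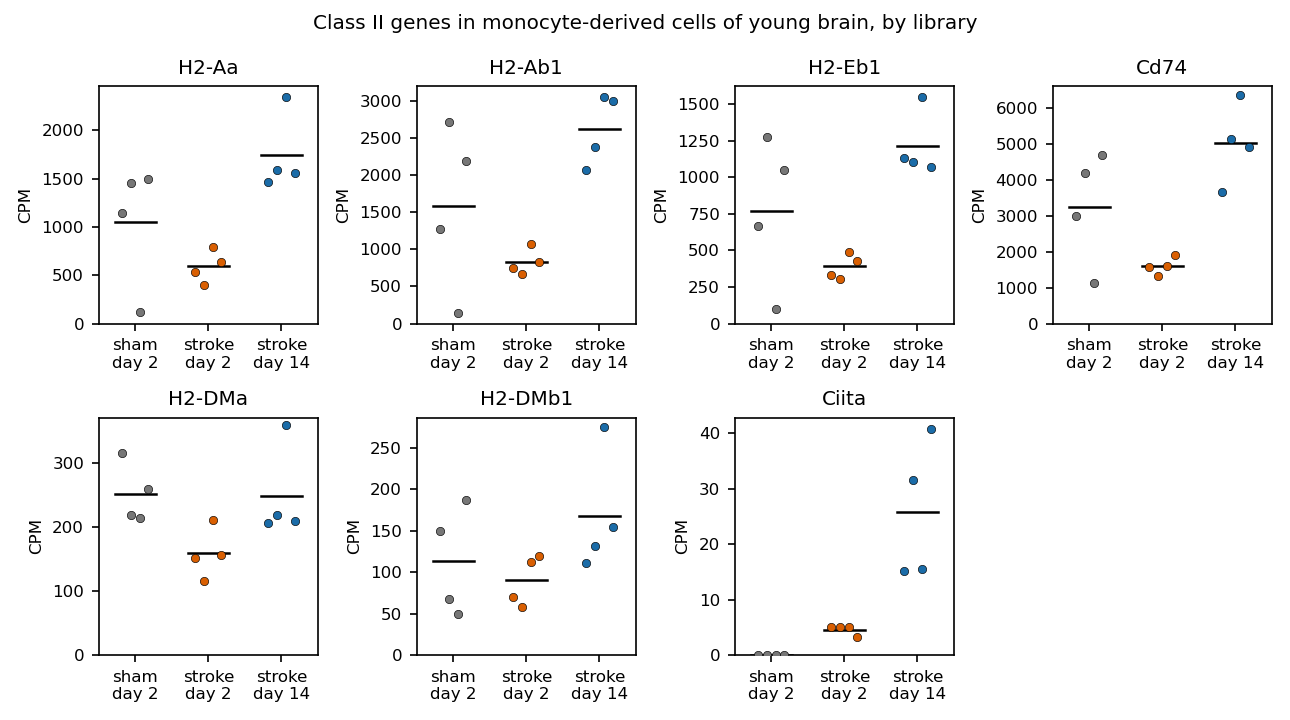
CPM of each member in monocyte-derived cells of young brain, 1 panel per gene and 1 point per library, bars at the group means, for sham day 2, stroke day 2 and stroke day 14. Day 14 lies above day 2 without overlap for H2-Aa, H2-Ab1, H2-Eb1, Cd74 and Ciita, and the sham libraries spread from 1131 to 4669 CPM for Cd74.

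Sham brains held few of these cells, 43 to 99 per library against 1468 to 2180 at day 2 and 489 to 857 at day 14, and their values spread widely. Cd74 was 2998, 4174, 1131 and 4669 CPM in the sham libraries, from below the day 2 level to within the day 14 range. Between day 2 and sham 0 of 7 members were called by edgeR, where 6.71% of genes were, and 0 had an unadjusted p under 0.05 in edgeR and 0 were called by DESeq2. Cd74 had a log2 fold change of -0.49 ± 0.37 (adjusted p = 0.527). Scaling by library size alone, in place of TMM (trimmed mean of M-values), lowered the median over all genes by 0.42 in this comparison and by 0.39 for day 14 against sham, and H2-DMb1 then changed sign in the first (0.23 to -0.24) and H2-DMa in the second (0.37 to -0.05). The same shift was -0.17, -0.46 and -0.28 in microglia for day 2 against sham, day 14 against sham and day 14 against day 2.

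Between day 14 and sham 1 of 7 members was called, where 5.37% of genes were. This was Ciita, which was at 0 in all 4 sham libraries, so that its level at day 14 was at least 1.55-fold higher, with a floor of 3 counts over the sham group (adjusted p = 0.0352). At day 2 it was only 3.17 to 5.11 CPM, so its day 14 values carried it past the filter on low counts. The call thus rests on a gene admitted by the group in which it was high. Its adjusted p was 0.0519 and 0.0596 without day 14 library 4 or 2, and 0.159, 0.0683 and 0.0628 without sham library 1, 2 or 3. Without day 14 library 1 or 3 it did not pass the filter on low counts and was not tested. Cd74 had a log2 fold change of 1.11 ± 0.38 (adjusted p = 0.114), and 6 members had an unadjusted p under 0.05, where 1361 of 8080 genes did. In the MdC sums, dendritic markers (8 genes, 2 to 8 of them detected) summed to 41.1 to 102 CPM in sham, 19.9 to 50.3 CPM at day 2 and 79.1 to 109 CPM at day 14, and so were also higher at day 14 than at day 2. B cell markers (6 genes) reached at most 47.0, 6.82 and 19.8 CPM. Neutrophil markers reached 3716 CPM in sham, 349 CPM at day 2 and 167 CPM at day 14. The part of these cells in the differences was not tested. In a sum of cells, more cells with a gene and more RNA of it per cell cannot be told apart.

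The share of MdC with a chain transcript (H2-Aa, H2-Ab1 or H2-Eb1) was also higher at day 14 in these libraries. With each cell thinned to 500 counts, it was 8.11% to 16.5% in 3 sham libraries, 15.9% to 22.6% at day 2 and 36.3% to 38.7% at day 14. Sham library 4 kept 14 cells and was left out. Day 14 exceeded day 2 by 19.3 percentage points (37.8% ± 1.06 against 18.5% ± 3.07, SD, n = 4 each). An exact two-sided permutation test gave p = 0.0286, its lower limit for 4 against 4 libraries, and 0.495 adjusted over 26 such tests. This test took the libraries as unpaired, unlike the fit with the replicate block. Without thinning, the shares were 21.3% to 37.8% at day 2 and 35.0% to 59.9% at day 14, at median depths of 706.5 to 1379 and 449 to 1804 counts. Endothelial cells, which should lack these genes, had thinned means of 1.39%, 0.487% and 3.17% in sham, day 2 and day 14, at median depths of 302 to 1059 counts. With values rounded up before thinning, the endothelial means were 4.47%, 5.89% and 11.3% and those of MdC 13.6%, 17.8% and 36.7%.

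In the subtypes MdC5 and MdC4, both the share of cells and the Cd74 level separated the libraries of day 2 and day 14. MdC5, the subtype highest in class II, was 8.55% to 11.1% of MdC at day 2 and 20.5% to 23.6% at day 14, and from 4.88% to 16.3% in sham. MdC4, with 1626 CPM of Ccr2 and 3430 CPM of Ly6c2, was 9.28% to 14.3% at day 2 and 20.4% to 28.9% at day 14. Within MdC4 the levels also differed: 4 of 6 members tested were called between day 14 and day 2, where 1.33% of 3542 genes were. Cd74 was 940.2, 828, 1003 and 1078 CPM at day 2 and 2503, 3625, 2974 and 3008 CPM at day 14, without overlap.

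In MdC4, Cd74 rose by a log2 fold change of 1.61 ± 0.23 (adjusted p = 0.00929). H2-Aa rose by 1.73 ± 0.26 (adjusted p = 0.0106, 837 against 243.5 CPM), H2-Ab1 by 1.84 ± 0.27 (adjusted p = 0.0101, 1445 against 393 CPM) and H2-Eb1 by 2.09 ± 0.40 (adjusted p = 0.0238, 569.9 against 134 CPM). H2-DMa had 0.38 (adjusted p = 0.675) and H2-DMb1 1.03 (adjusted p = 0.322). With each library left out, the log2 fold change was 1.49 to 1.71 for Cd74, 1.60 to 1.98 for H2-Aa, 1.71 to 1.97 for H2-Ab1 and 1.78 to 2.33 for H2-Eb1, while calls were lost in some of these fits. Cd74 was not called without day 2 library 1 (adjusted p = 0.0614) or 3 (0.0522), H2-Aa without day 2 library 1 (0.0614) or 4 (0.081), H2-Ab1 without day 2 library 1, 3 or 4 (0.0522 to 0.081) and H2-Eb1 without any 1 of those or of day 14 libraries 1, 2 and 4 (0.0585 to 0.175). Within MdC5 edgeR called 0 of 7 members, where it called 2.08% of 3177 genes, and 4 had an unadjusted p under 0.05. Its Cd74 was 9844, 10843, 8470 and 13805 CPM at day 2 and 14001, 15862, 22735 and 16379 CPM at day 14, also without overlap, with a log2 fold change of 0.71 ± 0.22 (adjusted p = 0.133), and Ciita had 1.72 ± 0.41 (adjusted p = 0.0518). With the replicate block 4 of 7 members were called in MdC5 (7.52% of genes were), Cd74 (adjusted p = 0.0144), Ciita (0.00509), H2-Ab1 (0.0229) and H2-DMa (0.0496), and in MdC4 H2-DMb1 (0.0488) was called beside the other 4 (6.69% of genes). The annotation drew on the same cells, so a subtype's share and its level are not independent.

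**Figure D4:**
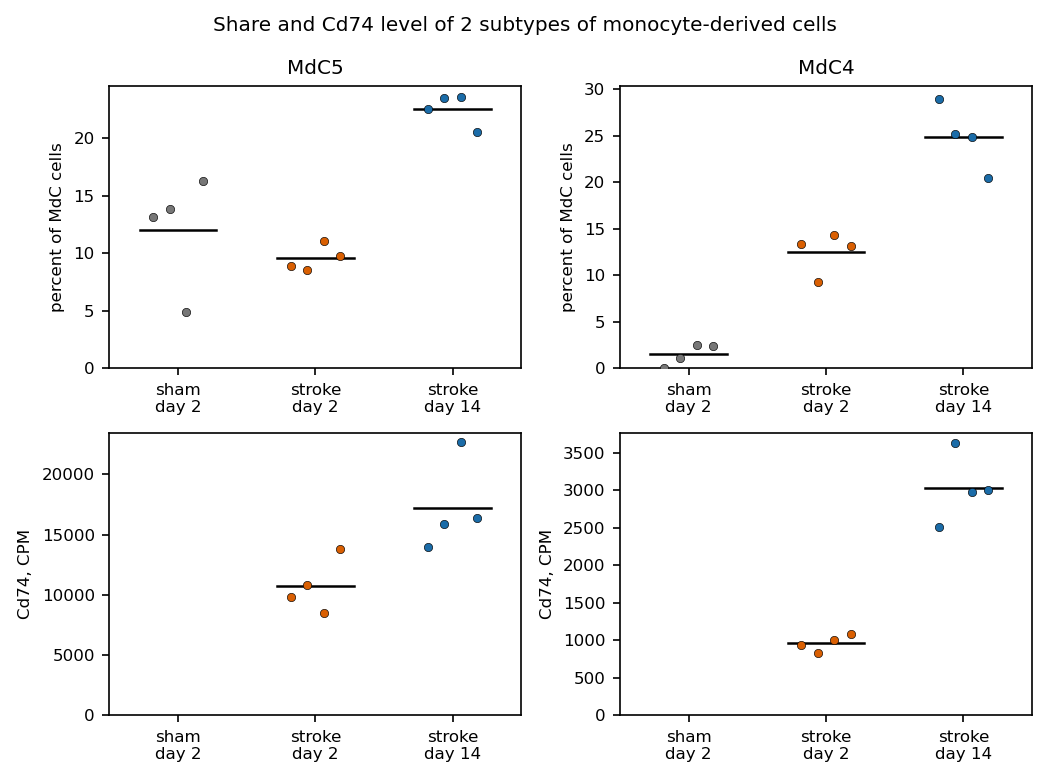
The subtypes MdC5 and MdC4 in young brain, 1 point per library: share of monocyte-derived cells in percent (top) and Cd74 in CPM (bottom, libraries with at least 20 cells of the subtype, which no sham library had). Both shares are higher at day 14 than at day 2, and Cd74 in MdC4 is 828 to 1078 CPM at day 2 and 2503 to 3625 CPM at day 14.

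In border-associated macrophages the group means of Cd74 had the same order as in MdC, with a wide spread. Cd74 was 10307, 8331, 9098 and 23282 CPM in sham, 2704, 2658, 10706 and 6103 CPM at day 2, and 15835, 8648, 23830 and 19656 CPM at day 14. Of 6 members tested, 0 were called between day 14 and day 2 (0.762% of 1313 genes were), 0 between day 2 and sham (2.36%) and 0 between day 14 and sham (0.0762%). Unadjusted p values of edgeR were under 0.05 for 6, 2 and 0 members, where 212, 300 and 80 of 1313 genes had such values. DESeq2 called 0 members in each. Without day 2 library 3, 2 members were called between day 14 and day 2, where 0.896% of genes were. Cd74 had a log2 fold change of 1.61 ± 0.48 for day 14 against day 2 (adjusted p = 0.144) and of -1.23 ± 0.48 for day 2 against sham (adjusted p = 0.151).

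Without sham library 4, whose border macrophage markers were low, the value for day 2 against sham was -0.84 ± 0.45 (adjusted p = 0.338). BAM2, with the high class II level, was 23.4% to 35.6% of BAM in the other 3 sham libraries and 82.7% in that one, 16.1% to 28.4% at day 2 and 35.0% to 56.9% at day 14. Day 14 libraries held 20 to 77 BAM each. Within BAM2, Cd74 had a log2 fold change of 0.39 ± 0.24 for day 2 against sham (adjusted p = 0.44, 2 against 4 libraries) and of -0.25 ± 0.25 for day 14 against day 2 (adjusted p = 0.887, 3 against 2 libraries). Both signs were opposite to those over the whole class. In BAM2 edgeR called 0 of 6 members and 0% of 577 genes in either comparison, with 2 and 0 members at an unadjusted p under 0.05.

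Dendritic cells had a high class II level in all 3 young groups. Cd74 was between 17699 and 27968 CPM in all 12 libraries, and 0 of 7 members were called between day 2 and sham (1.24% of 4365 genes were), day 14 and sham (1.83%) or day 14 and day 2 (0.893%). Ciita, the transactivator, was 140, 78.0, 86.6 and 21.1 CPM in sham, 171, 123, 143 and 220 CPM at day 2, and 218, 240, 165 and 210 CPM at day 14. Its sham libraries lay below all day 14 libraries, with a log2 fold change of 1.31 ± 0.38 (adjusted p = 0.105) and 0.95 ± 0.38 for day 2 against sham (adjusted p = 0.245). It was the only member with an unadjusted p under 0.05 in either comparison, none had one between day 14 and day 2, and DESeq2 called 0 in each. Over all 4365 genes, 517 had one for day 14 against sham, 706 for day 2 against sham and 488 between the stroke times. A chain transcript was found in 93.3%, 95.4% and 92.7% of thinned dendritic cells in sham, day 2 and day 14.

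Microglial class II levels depended on how the near-zero values were read. Cd74 as deposited was 46.9, 2.08, 22.6 and 0 CPM in sham, 107, 89.6, 476 and 32.9 CPM at day 2, and 307, 324, 46.8 and 0.000665 CPM at day 14. The libraries numbered 4 were lowest in all 3 groups, and they had H2-Aa and H2-Ab1 at 0. The near-zero values were not spread evenly. Those under 0.01 were 0% of the class II values above 0 in sham library 1, day 2 libraries 1 and 3 and day 14 libraries 1 and 2. They were 23.1% and 48.6% in day 2 libraries 2 and 4, and 91.4% to 100% in sham libraries 2 to 4 and day 14 libraries 3 and 4. In day 14 library 4, 516 of 2625 microglia had values above 0 of the chain genes or Cd74, which summed to 0.000581 counts. In some libraries a few cells carried most of these counts: of the summed counts of the 3 chain genes and Cd74, 2 of 2093 microglia, each with at least 10 such counts, held 91.3% in sham library 3, and 1 of 684 held 92.8% in day 14 library 3. In day 14 libraries 1 and 2, 10 of 904 and 4 of 957 microglia had at least 10 such counts and held 20.9% and 24.4%, and no microglial cell of the other 8 young libraries had as many. The levels are those of the sum and not of a typical cell. Of 6 members tested, 0 were called between day 2 and sham (31.4% of 10145 genes were), 0 between day 14 and sham (15.2%) and 0 between day 14 and day 2 (6.95%). Members with an unadjusted p under 0.05 in edgeR numbered 0, 4 and 0, where 4482, 3343 and 2228 of 10145 genes had such a p. DESeq2 called 1, 0 and 0 members, and it called 33.6% of genes for day 2 against sham. Without day 14 library 4, 3 members were called between day 14 and sham, where 24.3% of genes were. Cd74 had a log2 fold change of 3.74 ± 1.27 for day 14 against sham (adjusted p = 0.0606) and of 2.73 ± 1.32 for day 2 against sham (adjusted p = 0.126), or 2.27 ± 1.33 without day 2 library 3 (adjusted p = 0.209).

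When every deposited value was rounded up to the next whole number before summing, Cd74 was 53.7 to 78.4 CPM in sham, 74.1 to 249 CPM at day 2 and 187 to 389 CPM at day 14. Members called were then 4 for day 2 against sham (35.2% of 10996 genes were called), 4 for day 14 against sham (17.2%) and 3 for day 14 against day 2 (10.1%). Cd74 had a log2 fold change of 0.96 ± 0.29 (adjusted p = 0.0221), 2.59 ± 0.29 (adjusted p = 6.04e-05) and 1.63 ± 0.29 (adjusted p = 0.0037). H2-DMa and H2-DMb1 were called in none of these. Rounded up, endothelial cells had group means of 49.0, 50.6 and 101 CPM of Cd74 in sham, day 2 and day 14, and blood neutrophils 107, 88.5 and 166 CPM, so types listed near 0 also had values by this reading and were highest at day 14.

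**Figure D5:**
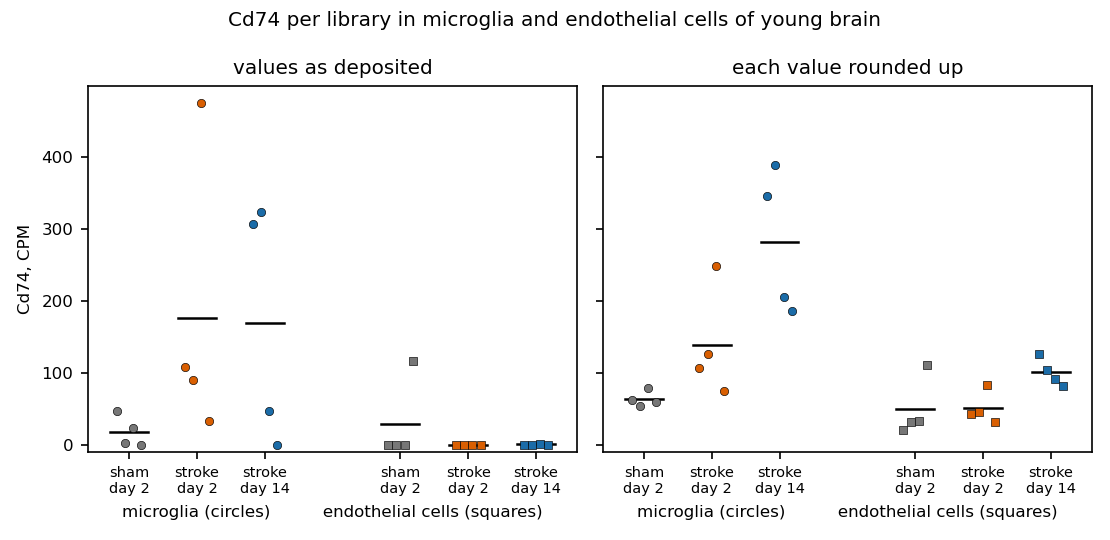
Cd74 in CPM per young brain library in microglia (circles) and endothelial cells (squares) for the deposited values and for values rounded up to whole numbers, by group. Rounded up, microglia are at 53.7 to 78.4 CPM in sham and 187 to 389 CPM at day 14, while the endothelial mean goes from 49.0 to 101 CPM.

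The microglial sums also held counts of genes from the marker lists of other cell types. The monocyte or macrophage list (6 genes, 1 to 6 of them detected) summed to 235 to 394 CPM in sham, 545 to 4252 CPM at day 2 and 2156 to 3177 CPM at day 14 in the microglial sums, with the highest value in day 2 library 3. Dendritic markers (8 genes, 2 to 6 detected) were 42.2 to 95.4, 10.6 to 54.3 and 85.1 to 103 CPM, and B cell markers (6 genes) at most 28.3, 31.9 and 24.8 CPM. A sum does not tell such other cells from microglia that express the listed genes. The part of other cells in the microglial values was not tested. H2-DMa, by contrast, was 155 to 299 CPM in every young library, with log2 fold changes that were not called, and TMM and library size scaling gave it opposite signs for day 14 against sham (0.01 and -0.46). After thinning, 0.492%, 2.51% and 4.77% of microglia had a chain transcript in sham, day 2 and day 14, where endothelial cells had 1.39%, 0.487% and 3.17%. The day 14 libraries had 12.01%, 6.89%, 0.167% and 0%, so the mean rests on the first and second of them, and the day 2 mean is over 3 libraries, since library 3 kept too few cells. Rounded up before thinning, these shares were 2.77%, 9.81% and 11.3% in microglia (4 libraries each) and 4.47%, 5.89% and 11.3% in endothelial cells. The microglial sham libraries (2.35% to 3.21%) then lay below those of day 2 (3.43% to 23.6%, the highest in library 3 with 55 cells kept) and day 14 (7.83% to 15.4%), each with an exact two-sided permutation p of 0.0286, the lower limit for 4 against 4, and 0.267 adjusted over 28 such tests.

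In blood monocytes the members had the same direction between the stroke times. Cd74 was 1928, 627, 866 and 652 CPM in sham, 867, 423, 392 and 955 CPM at day 2 and 2416, 1458 and 2738 CPM at day 14, so day 14 lay above day 2 without overlap. Of 6 members tested, 0 were called between day 14 and day 2 (0.564% of 6743 genes were). An unadjusted p under 0.05 was reached by 5 members and by 518 of all genes, and DESeq2 called 2 members (0.919% of genes). Cd74 had a log2 fold change of 1.66 ± 0.39 (adjusted p = 0.0779). Between day 14 and sham 0 were called (0.252%), 3 had an unadjusted p under 0.05, where 367 of 6743 genes did, and DESeq2 called 0. Without sham library 1, 1 member was called there, where 0.184% of genes were. Between day 2 and sham 0 members were called by edgeR or DESeq2 and 0 had an unadjusted p under 0.05 (0% of genes were called).

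The subtype Mo5, with 2791 CPM of Ccr2 and 80.2 CPM of Cd209a, was 2.35% to 5.29% of monocytes at day 2, 7.97% to 10.1% at day 14 and 4.61% to 7.96% in sham. It held medians of 58.2%, 62.5% and 63.2% of the monocyte counts of Cd74 in sham, day 2 and day 14. Within Mo5 edgeR called 0 of 6 members between day 14 and day 2 (0.165% of 607 genes were), 2 had an unadjusted p under 0.05, and Cd74 had 0.87 ± 0.43 (adjusted p = 0.85, 3 against 2 libraries). Thinned monocytes had a chain transcript in 13.4%, 8.32% and 20.5% of cells in sham, day 2 and day 14, and day 14 exceeded day 2 by 12.2 points with an exact permutation p of 0.0571, the lower limit for 3 against 4 (0.495 adjusted over the 26 tests). The thinned share in blood T cells was at most 2.99% in any library.

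In blood B cells no difference was called: Cd74 was 13529 to 20217 CPM over 11 libraries, and 0 of 7 members were called or had an unadjusted p under 0.05 in any of the 3 comparisons (0.0114%, 0.0114% and 0% of 8762 genes were called), and DESeq2 also called 0. Blood DC could be compared for day 14 against sham only (3 against 2 libraries), where 0 of 7 members were called (1.48% of 1626 genes were), 3 had an unadjusted p under 0.05, DESeq2 called 0, and 1 was called without sham library 1 (0.589% of genes), a fit in which the single sham library left was assumed to vary like the other groups. Cd74 was 17354, 13519 and 15638 CPM at day 14 and 13262 and 7958 CPM in sham, with a log2 fold change of 0.60 ± 0.26 (adjusted p = 0.375). Over all genes of this comparison, 140 of 1626 had an unadjusted p under 0.05. In brain B cells 0 of 5 members tested and 0% of 409 genes were called by edgeR in any young comparison, with 0 at an unadjusted p under 0.05 and 0 called by DESeq2. In young endothelial cells and granulocytes and in blood neutrophils and NK cells, no member passed the filter on low counts.

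The aged libraries were few, the young ones were all male, and no member was called over the whole type in aged microglia or MdC. In aged MdC, Cd74 was 934 and 725 CPM in sham (female and male), 889 to 1157 CPM in 3 stroke libraries of day 2 and 2476 CPM in the single library of day 14. MdC5 was 1 of 33 and 1 of 52 aged MdC in the sham libraries, 12 of 271, 39 of 813 and 20 of 856 at day 2 of stroke and 11 of 87 in the day 14 library, so single cells set the sham shares. Against young sham (3243 ± 1573 CPM, n = 4), aged sham (830 ± 148 CPM, n = 2) had a log2 fold change of -2.01 ± 0.51 for Cd74 (adjusted p = 0.688). There 5 of 6 members had an unadjusted p under 0.05 and 0 were called by edgeR or DESeq2, where 0% of 8167 genes were called. Between aged stroke and aged sham 0 of 6 were called (2.56%), 1 had an unadjusted p under 0.05, DESeq2 called 0, and Cd74 had 0.98 ± 0.50 (adjusted p = 0.332). Library size scaling lowered the median of all genes by 0.65 there and gave Cd74 0.32. Aged and young stroke libraries of day 2 had 0 of 6 members and 0% of genes called, 1 member at an unadjusted p under 0.05 and none by DESeq2. The interaction of age and stroke was 1.42 ± 0.61 for Cd74 (adjusted p = 0.828), where 0% of genes and 0 of 6 members were called, 2 members had an unadjusted p under 0.05 while DESeq2 called 0. In the order given, these MdC comparisons had 545, 1383, 155 and 474 of 8167 genes with an unadjusted p under 0.05.

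In aged microglia, Cd74 was 126 CPM (female) and 387 CPM (male) in sham, 95.4, 112 and 213 CPM at day 2 of stroke and 108 CPM at day 14. Of the counts of the chain genes and Cd74 in the male sham library, 8 of 329 microglia held 84.1%, and 5 of 2385 held 27.0% in the female one. Values under 0.01 made up 98.1%, 91.4% and 99.4% of the microglial class II values above 0 in young sham libraries 2, 3 and 4. They made up 0% in young sham library 1 and in both aged sham libraries. The aged count tables listed 27514 genes and those of young brain 19704. Age and these differences between the deposited values cannot be told apart in what follows. Both aged sham libraries lay above all 4 young sham libraries (0 to 46.9 CPM), with a log2 fold change of 3.87 ± 0.90 (adjusted p = 0.288; 0.018% of 11096 genes were called and 0 of 6 members, of which 5 had an unadjusted p under 0.05, while DESeq2 called 0). With values rounded up, Cd74 was 141 CPM (female) and 379 CPM (male) in aged sham and 53.7 to 78.4 CPM in young sham, with a log2 fold change of 2.11 ± 0.36 (adjusted p = 0.0476), and 1 of 6 members was called, where 0.0698% of genes were. The monocyte or macrophage markers in these sums were 1211 and 1241 CPM in aged sham, above the 235 to 394 CPM of young sham, and their part in this value was not tested. In the subtype Mg2 the same comparison called Cd74 (115 ± 67.6 against 9.70 ± 19.4 CPM, log2 fold change 3.11 ± 0.71, adjusted p = 0.0352; 0.206% of 8733 genes), and without young sham library 2, 3 or 4 its adjusted p was 0.0663, 0.0607 or 0.0653. Young sham library 1 was the only one of the 4 with a Cd74 level above 0 in Mg2, and without it the group was at 0. Between aged stroke and aged sham 0 of 6 members were called (2.68%), 1 had an unadjusted p under 0.05 (H2-DMa, -0.93 ± 0.27, adjusted p = 0.0821) and DESeq2 called 1. The interaction of age and stroke had the opposite sign to that in MdC, with -3.45 ± 1.27 for Cd74 (adjusted p = 0.739) and a median of -3.09 over the 6 members tested, of which edgeR and DESeq2 each called 0, where 0% of genes were called, and 1 reached an unadjusted p under 0.05. Rounded up, the value for Cd74 was -1.61 ± 0.50 (adjusted p = 0.740). Over all 11096 microglial genes as deposited, an unadjusted p under 0.05 was reached by 509 for aged against young sham. It was reached by 1870 for aged stroke against aged sham and by 643 for the interaction. In DC and BAM aged and young stroke libraries of day 2 could be compared, where 0 of 7 and 0 of 6 members were called (0.0286% of 3497 and 0% of 2091 genes were) and 0 had an unadjusted p under 0.05.

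Other genes of the pathway were called in MdC in comparisons where the chain genes were not. In MdC, the loading and processing list (8 genes, 5 tested) had 4 genes higher and 0 lower at day 2 than in sham, where 6.71% of all genes were called in either direction, with a median log2 fold change of 1.77 where all genes had 0.29. These were Lgmn (3.51 ± 0.46, adjusted p = 0.000525), Ctsl (2.37 ± 0.36, adjusted p = 0.00131) and Ctss (1.77 ± 0.37, adjusted p = 0.0101), proteases of the lysosome that cut antigen and the invariant chain, and Ifi30 (1.29 ± 0.35, adjusted p = 0.0375), a reductase of disulfide bonds in antigen. In the same comparison 0 of 7 members were called. At day 14 against sham, where 5.37% of all genes were called, 3 of 5 were higher, with Ctss at 8088 against 2166 CPM, and at day 14 against day 2 none of the 5 was called (1.79% of all genes were). The interferon gamma signalling list (12 genes, 11 tested) had 0 genes called at day 2 against sham. Irf8, a transcription factor of myeloid cells, was higher at day 14 than in sham (0.98, adjusted p = 0.0259). The transcription complex list (7 genes, 6 tested) had 1 gene higher at day 2 than in sham, Rfxap. It was at 0 in the small sham sums (at least 1.85-fold higher, with the same floor). Rfxap is named here outside the rule for naming genes, after its value was seen. It passed the filter on low counts through stroke libraries only, so its call rests on a gene admitted where it was high. The transcription complex list had 0 in the other 2 comparisons, and the turnover list (4 genes) had none. Each named difference of a list is larger than the shift that library size scaling gives.

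In microglia, H2-Oa and H2-Ob were higher at day 14 than at day 2 without overlap, with 51.6 against 20.0 CPM (1.93 ± 0.27, adjusted p = 0.00116) and 39.7 against 15.1 CPM (1.83 ± 0.28, adjusted p = 0.00206). March1, which encodes a ligase that removes class II from the cell surface, was lower in microglia at day 2 (112 CPM) and day 14 (103 CPM) than in sham (319 CPM), with log2 fold changes of -1.33 and -1.19. Of all microglial genes, 31.4% were called for day 2 against sham, 15.2% for day 14 against sham and 6.95% between the stroke times. Without day 2 library 3, whose microglial markers were low, H2-Oa and H2-Ob had 1.96 and 1.87 between the stroke times (adjusted p = 0.00163 and 0.00207) and March1 -1.31 at day 2 (adjusted p = 0.00673). Both H2-Oa (-1.24, adjusted p = 0.00415) and H2-Ob (-0.83, adjusted p = 0.0352) were lower at day 2 than in sham. Other list genes were called too. Ctss was higher at day 14 than at day 2 (1.52 ± 0.30). Ctsl (1.80 ± 0.36), Ctss (1.12 ± 0.29) and H2-Ob (1.00 ± 0.24) were higher at day 14 than in sham. Creb1 was lower than in sham at day 2 (-1.24 ± 0.23) and day 14 (-0.99 ± 0.21). Ifngr1 (-1.36 ± 0.26), Irf2 (-1.28 ± 0.28) and Jak1 (-1.24 ± 0.37) were lower at day 2 than in sham. Ifi30 was 209, 123, 89.6 and 66.0 CPM in sham microglia, 732, 398, 1316 and 413 CPM at day 2 and 189, 194, 236 and 107 CPM at day 14. The highest value is that of day 2 library 3. Ifi30 was higher at day 2 than in sham with that library (2.51 ± 0.40, adjusted p = 0.000683) and without it (2.26 ± 0.38, adjusted p = 0.00178). It was lower at day 14 than at day 2 with it (-1.46 ± 0.39, adjusted p = 0.0382), and was not called without it (-1.22 ± 0.38, adjusted p = 0.0774). In DC, Ifi30 was higher at day 2 than in sham (1593 against 473 CPM, adjusted p = 0.0161, 1.24% of genes called). It was also higher at day 14 than in sham (1245 against 473 CPM, adjusted p = 0.0357, 1.83% of genes called). In BAM no gene of the 4 lists was called.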

How the data were processed

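Per the labels, Drop-seq was run on mouse brain and blood cells, and the submitters' processing notes name Seurat and the build mm10. The deposited tables give the authors' expected counts per gene and cell, with cell types and subtypes as the authors annotated them. The step that made these counts fractional is not given in the sources used here.

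The deposited metadata also hold a count of detected genes and the percent of mitochondrial counts of each cell, which the authors made and which were not used further. For each library and annotated type with at least 20 cells, the expected counts were added up and rounded. Levels are CPM of these sums. Groups with at least 2 such libraries were compared with edgeR 4.0.16 (quasi-likelihood, TMM, filterByExpr), with Benjamini-Hochberg adjustment over all genes tested, and called at an adjusted p under 0.05. DESeq2 1.42.0 was an alternative, and Scrublet, which marked 0.0851% of 106977 cells and so did not work, was replaced in an added alternative by leaving out the 5% of cells with the highest score. Cells were thinned to 500 counts for shares, compared by exact two-sided permutation over libraries. All values rounded up were a further alternative chosen after seeing the data. Leaving out day 2 library 3 for the pathway genes named in microglia was also chosen then. Libraries are pools of animals, and p-values measure the spread between these pools. The labels do not say what a replicate number shares. In MdC all 4 same-numbered pairs of day 2 and day 14 stroke deviated from their group means together (r from 0.282 to 0.797, and from -0.661 to 0.519 for pairs of different numbers), so this comparison is also given with the number as a block. The block fit of all MdC kept the sham libraries, which were blocked by number as well. In the other comparisons checked (those with sham in MdC, and all in microglia, blood monocytes and blood B cells), at least 1 pair was under 0.1 and the numbers were not used as pairs. Of 406 library pairs 231 shared a barcode, at most 7.

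Members of the described set are named by the set itself. Other genes are named from 4 lists (loading and processing, transcription complex, turnover at the membrane, interferon gamma signalling) where called, with a mean of at least 20 CPM, and 1 result of these lists is not reported here. The members and lists were chosen with earlier results of these data known. The scripts were tested on simulated data.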

Additional observations from a re-analysis of the deposited data

Results flagged for a closer look

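In 13 of 117 sets of a gene and a group of 4 libraries, 1 library lay apart from the other 3 by Dixon's criterion at the 95% level, which chance meets in about 1 in 20 sets. In MdC at day 14, library 3 was high for H2-Aa (2347 CPM), H2-Eb1 (1551 CPM) and H2-DMa (359.7 CPM), and at day 2 library 4 was low for Ciita (3.17 CPM). Sham library 4 was high for Cd74 in BAM (23282 CPM), the sum of 52 cells with low border macrophage markers. Day 2 library 3 was high for Cd74 in microglia (476 CPM), the sum of 58 cells with low microglial markers, and day 14 library 3 stood apart for Ciita in microglia (0.419 CPM). In brain, sham library 1 was high for H2-DMa in B cells (959 CPM) and sham library 2 stood apart for H2-Ab1 in DC (17048 CPM). In blood, sham library 2 was low for H2-Aa (2956 CPM) and H2-Eb1 (2046 CPM) in B cells. In blood monocytes, sham library 3 stood apart for H2-DMb1 (102 CPM) and day 2 library 1 for Ciita (17.5 CPM).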

How the results depend on the processing

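Shares of all genes called in each fit stand in parentheses after the counts of members called. The count in MdC between day 14 and day 2 (2) was 5 with DESeq2 (4.78%), 5 with the replicate number as a block (5.82%), 4 with only the compared groups in the fit (1.61%), 1 without the 5% of highest Scrublet score (1.77%), 1 with only cells of at least 800 counts (0.918%), 0 without the filter on low counts (0.729%) and 0 to 0 with each library left out (0.653% to 2.7%). Between day 14 and sham (1) it was 0 with DESeq2 (5.47%), with library size in place of TMM (4.89%), with the replicate block (6.4%), with only the compared groups (8.54%), without the 5% of highest Scrublet score (5.03%) and with at least 800 counts (1.19%), and 0 to 1 with each library left out. In microglia, where 0 were called, the count for day 2 against sham was 1 with DESeq2 (33.6%), 1 with the block (30.8%), 1 with only the compared groups (37.2%) and 4 with values rounded up (35.2%). For day 14 against sham it was 1 without the filter (8.88%), 4 with the block (16.4%), 1 with only the compared groups (18.3%), 4 rounded up (17.2%) and 0 to 3 with each library left out. For day 14 against day 2 it was 3 rounded up (10.1%). The other counts were 0, and became 1 in BAM for day 2 against sham (2.64%) and 2 for day 14 against day 2 (1.26%) when rounded up (0 to 2 with each library left out). In blood monocytes they became 3 without the filter (0.635%) and 0 to 1 with each library left out for day 14 against sham, and for day 14 against day 2 they became 2 with DESeq2 (0.919%), 4 without the filter (0.837%), 1 with the block (0.801%) and 3 with only the compared groups (1.45%). In blood DC the count was 0 to 1 with each library left out. In aged microglia it became 1 with DESeq2 for stroke against sham (4.18%), 3 without the filter (0.686%) and 1 rounded up (0.0698%) against young sham, and 1 without the filter for the interaction (0.0911%). In aged against young sham MdC it became 1 without the filter (0.0168%). Apart from these, 536 of the values that answer a comparison were unchanged in direction and call under their alternative, and the block changed no other count over a whole type. In the subtypes, the block moved the count between day 14 and day 2 from 4 to 5 in MdC4 (6.69%) and from 0 to 4 in MdC5 (7.52%). The difference in the share of cells with a chain transcript changed sign in MdC for day 2 against sham when at least 2 counts were required (-1.0002 points). In microglia for day 14 against day 2 it was -1.11 points when thinned to 300 counts, -0.033 points with at least 2 counts and from -0.157 to 3.98 points with each library left out, the lowest without day 14 library 1. The cause of these changes was not tested. Depth limits all values of Ciita, and the small sums of BAM and sham MdC.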
